A study of Mus musculus with 20 samples.

Results

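Expression of 8 genes was followed in monocyte-derived macrophages (MoMac) of fibrotic mouse livers: the alternative activation genes Chil3, Retnla, Ear2, Mrc1, Pdcd1lg2, Il4ra and Irf4, and Nos2, a marker of the opposite, classical activation. They were taken by gene symbol from the 59311 genes of the deposited table, where each of the 8 symbols has 1 row. Male C57BL/6 mice (C57BL/6 JRj by the methods), 10 to 12 weeks old at the start, received carbon tetrachloride (CCl4, 0.6 ml/kg, 2 injections per week for 4 weeks), which injures hepatocytes and causes fibrosis, so that all 10 mice, controls included, had injured livers and none was untreated. Mice 16 to 20 received 0.25 mg/kg of Ac-6-FP, which binds MR1 without activating the MAIT cells that recognize microbial riboflavin metabolites on it. It was given 2 h before the last CCl4 injection and daily for 2 days after it, and mice 11 to 15 received the vehicle (1% DMSO). Ly6Chi and Ly6Clo MoMac were sorted from the livers as CD11b+ F4/80+ cells negative for Ly6G, CD11c and CD3, which gave 4 groups of 5 libraries (Ly6Chi vehicle, Ly6Chi Ac-6-FP, Ly6Clo vehicle and Ly6Clo Ac-6-FP). Libraries with the same number in the labels were taken as 1 mouse.

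Alternative activation is the state that macrophages enter under interleukin-4 and interleukin-13. Both cytokines bind receptors that contain the Il4ra chain, and the signal passes through the transcription factor STAT6, which works on many target genes together with IRF4. The inducible nitric oxide synthase Nos2, which turns arginine into nitric oxide, is instead induced by interferon-gamma and bacterial products. In the injured liver, Ly6Chi cells are the recently recruited, inflammatory stage, and Ly6Clo MoMac are the later stage associated with resolution of fibrosis.

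The libraries held 5693049 to 18682437 reads on genes, and 5343 to 15766 genes had a value above 0. The Ly6Clo vehicle library of mouse 13 stood apart, with the lowest of both numbers. It was also at 0 for 2765 (41.6%) of the 6652 genes with a median of at least 100 normalized counts. The next lowest library totals were 10298994 reads and 9017 genes, with at most 870 of those 6652 genes at 0 (13.1%, Ly6Chi library of mouse 12), and results that rest on that library are given with and without it. Values are normalized counts, that is, reads per gene divided by 1 size factor per library and not by gene length, so that levels are compared between libraries and not between genes. Both libraries of mice 12, 13, 14 and 18 and the Ly6Chi library of mouse 15 had the most such zeros (4.4% or more in each), and in them a gene missed and a gene not expressed cannot be told apart. More genes were above 0 with Ac-6-FP than with vehicle, by medians of 13622 against 9749 in Ly6Chi and 14084 against 10379 in Ly6Clo libraries. By counting error alone a value of 0 allows up to 3 reads. The sort was visible in the data: Ly6c2, which encodes a Ly6C antigen, was higher in Ly6Chi MoMac in 10 of 10 mice, with 7403 ± 1691 (SD, n = 10) against 688 ± 198 (SD, n = 10) normalized counts. Itgax, which encodes CD11c, an antigen that the sort excluded, was at 0 in all Ly6Chi libraries but above 0 in 9 of 10 Ly6Clo libraries (1640 ± 992, up to 3302 normalized counts).

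Between the subsets of the same mouse, 5 of the 7 genes that could be tested differed. Retnla, Pdcd1lg2, Mrc1 and Ear2 were higher in Ly6Clo MoMac, and Chil3 was higher in Ly6Chi MoMac. All members but Nos2 passed the filter on low values (a mean of at least 10 normalized counts in at least 1 group), which left 17248 genes. Of these, 593 genes (3.44%) were higher in Ly6Clo and 303 (1.76%) were higher in Ly6Chi MoMac, against 4 and 1 of the members (limma on within-mouse differences of log2(normalized count + 1), Benjamini-Hochberg adjusted p-value under 0.05 over all genes, n = 10 mice). The calls higher in Ly6Chi were 33.8% of all calls here. They were 45.7% with equal library totals and 57.5% after adjustment for the genes detected per library. With each of these the member calls were the same 5. The median log2 difference was -2.53 over the 7 members and -0.03 over all genes tested.

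**Figure D1:**
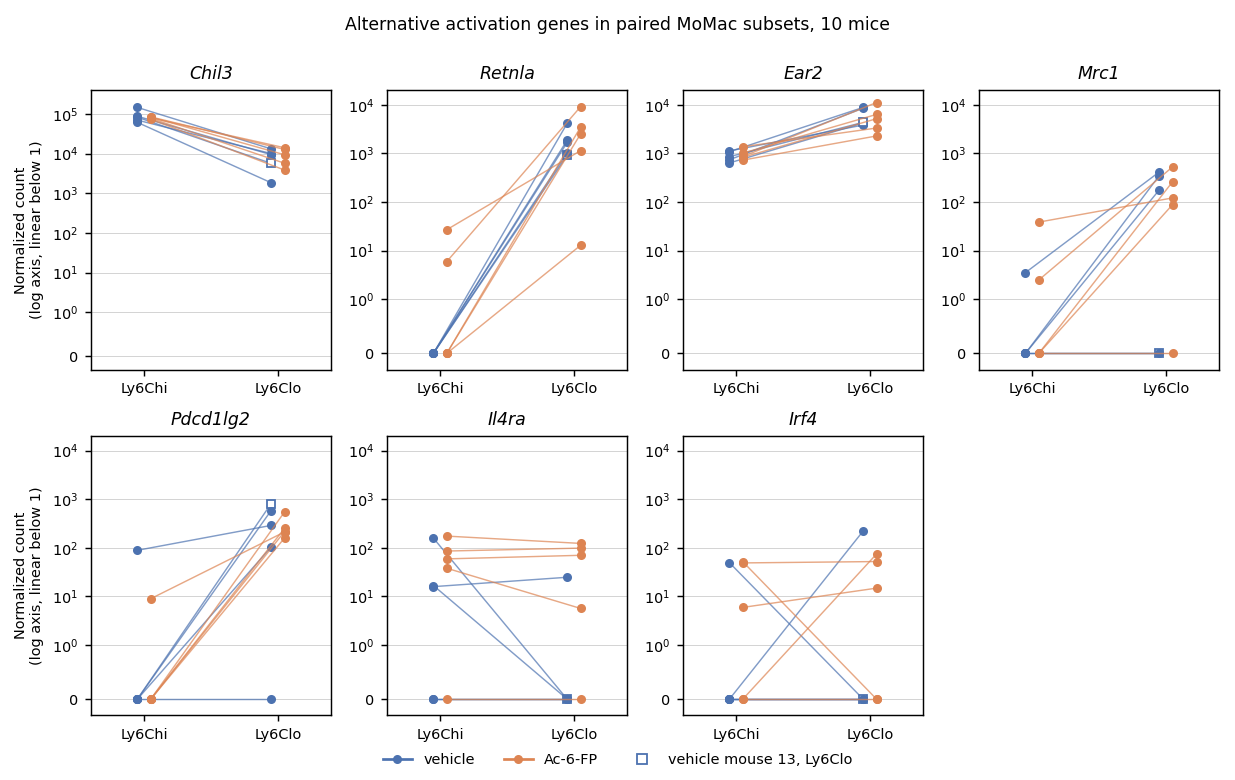
Normalized counts (vertical axis, logarithmic above 1) of 7 genes in Ly6Chi and Ly6Clo MoMac, with 1 line per mouse, vehicle mice in blue and Ac-6-FP mice in orange. The open square is the Ly6Clo vehicle library of mouse 13. Chil3 fell from Ly6Chi to Ly6Clo in 10 of 10 mice, Ear2 and Retnla rose in 10 of 10, and the colours are mixed in the panels.

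Nos2 (GSMG0005604, chromosome 11 from 78920787 to 78960226 of mm10) was at 0 normalized counts in 20 of 20 libraries. By counting error alone, at the depth of each library, this allows up to between 1.87 and 6.26 normalized counts, the upper value in the Ly6Clo library of mouse 13 and 3.72 without it. In the libraries with many zeros, that of mouse 13 above all, a transcript that was missed would also read 0. Nos2 was therefore not detected in either subset, with or without Ac-6-FP, and no test was made.

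Retnla, Chil3 and Ear2 encode secreted proteins: a resistin-like molecule, a chitinase-like protein without chitinase activity, and a ribonuclease named after eosinophils. They are shown with the 250 bases upstream of their start sites, and with those of Pdcd1lg2, because these 4 members kept their difference between subsets in every setting run. The bases are from RefSeq (GRCm38.p6, the same build as mm10). Capitals mark matches to a palindromic site type known for STAT6, TTCNNNNGAA (Retnla and Pdcd1lg2), to its shorter form known for other STAT factors, TTCNNNGAA (Chil3), and to a C/EBP-type site, TTGCNNAA (Retnla and Ear2), searched on both strands. Of all 32851 upstream windows of this length, 5.85%, 7.02% and 9.56% hold these matches. Each line gives the gene and its sequence, 5' to 3' on the strand of the gene.
Retnla (chr16:48842359-48842608, plus strand): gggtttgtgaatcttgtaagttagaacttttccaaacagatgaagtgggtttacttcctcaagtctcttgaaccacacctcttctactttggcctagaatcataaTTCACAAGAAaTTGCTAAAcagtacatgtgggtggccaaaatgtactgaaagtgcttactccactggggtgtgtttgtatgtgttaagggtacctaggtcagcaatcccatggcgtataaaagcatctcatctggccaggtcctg
Pdcd1lg2 (chr19:29410669-29410918, plus strand): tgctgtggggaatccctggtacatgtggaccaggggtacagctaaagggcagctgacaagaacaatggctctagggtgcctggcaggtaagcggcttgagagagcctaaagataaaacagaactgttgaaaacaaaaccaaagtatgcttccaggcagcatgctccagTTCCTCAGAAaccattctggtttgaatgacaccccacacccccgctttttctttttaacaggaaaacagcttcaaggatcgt
Ear2 (chr14:44102404-44102653, plus strand): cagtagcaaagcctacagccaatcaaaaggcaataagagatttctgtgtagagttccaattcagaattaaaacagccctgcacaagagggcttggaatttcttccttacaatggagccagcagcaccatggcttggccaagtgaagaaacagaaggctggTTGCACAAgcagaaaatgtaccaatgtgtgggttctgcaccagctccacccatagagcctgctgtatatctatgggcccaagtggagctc
Chil3 (chr3:106167565-106167814, minus strand): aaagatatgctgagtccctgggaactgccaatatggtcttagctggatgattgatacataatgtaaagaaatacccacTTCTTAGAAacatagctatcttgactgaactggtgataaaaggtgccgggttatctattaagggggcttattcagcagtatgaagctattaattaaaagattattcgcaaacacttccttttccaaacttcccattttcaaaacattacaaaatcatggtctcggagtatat
The table holds 7 of the 8 genes (not Nos2), and the windows of Mrc1, Il4ra and Irf4 hold none of the 3 motifs. A match is a run of letters and not a measured binding site. In Retnla the STAT6-type match lies at bases -145 to -136 and the C/EBP-type match at -134 to -127, next to each other, and in Pdcd1lg2 the STAT6-type match lies at -82 to -73.

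Retnla (GSMG0015097, chromosome 16 from 48842551 to 48844461) had the widest difference of the members. All 5 Ly6Chi vehicle libraries were at 0, and Ly6Chi Ac-6-FP libraries were at 0, 27, 0, 0 and 5.96 normalized counts. The Ly6Clo libraries of the same mice were at 4142, 1678, 914, 1030 and 1869 with vehicle and at 3465, 1139, 2501, 12.8 and 9101 with Ac-6-FP. Every mouse had more Retnla in Ly6Clo MoMac, and mouse 19 alone stayed below 914 there. By counting error alone, against the 3 reads that a 0 allows, the vehicle mean was at least 669-fold higher in Ly6Clo MoMac. In single vehicle mice these lower limits were 345-fold to 1557-fold. Of the Ac-6-FP mice, the 3 at 0 in Ly6Chi MoMac had such limits of 1853-fold, 884-fold and, in mouse 19, 4.98-fold. Mice 17 and 20 had 42.2-fold and 1527-fold. In the Ly6Chi libraries with many zeros, a transcript that was missed would also read 0. The limits from those libraries, and that of the vehicle mean, therefore do not bound the true fold. The log2 difference of -9.60 (standard error 0.86, adjusted p = 1.60e-05, limma) kept its call in 8 of 8 other settings and 10 of 10 fits without 1 mouse.

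Chil3 (GSMG0025877, chromosome 3 from 106147554 to 106167564) went the other way. Ly6Chi libraries held 146668, 87738, 83032, 61482 and 70079 normalized counts with vehicle and 73492, 83669, 84689, 77941 and 79886 with Ac-6-FP. Ly6Clo libraries held 13188, 9459, 5687, 1847 and 10060 with vehicle and 3865, 9378, 12774, 5744 and 14106 with Ac-6-FP. The subsets did not overlap, and the level was higher in Ly6Chi by 5.66-fold to 33.3-fold within a mouse (median 10.2-fold, 10 of 10 mice). The log2 difference was 3.48 (standard error 0.21, adjusted p = 5.21e-07, limma) and was called in every setting run. Ly6Chi libraries of different mice lay within 2.39-fold of each other and Ly6Clo libraries within 7.64-fold. Of the 75-base windows of Chil3 transcripts (GENCODE M21), 13% also occur in transcripts of other genes, mostly its neighbour Chil4. Chil4 was listed at 0.515% to 0.866% of Chil3 in all 20 libraries, so reads of the pair may not be fully separated.

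Ear2 (GSMG0011462, chromosome 14 from 44102654 to 44103531) was above 0 in all libraries, with the smallest of the called differences. Ly6Chi libraries held 1125, 637, 857, 739.5 and 1086 normalized counts with vehicle and 1371, 1013, 728, 863 and 831 with Ac-6-FP. Ly6Clo libraries held 3833, 4231, 4347, 8515 and 8830 with vehicle and 3325, 6340, 2286, 11129 and 5172 with Ac-6-FP. The highest Ly6Chi library lay below the lowest Ly6Clo library. Within a mouse Ear2 was 2.42-fold to 12.9-fold higher in Ly6Clo MoMac (median 6.24-fold, 10 of 10 mice), and the log2 difference of -2.53 (standard error 0.24, limma, adjusted p = 2.40e-05) was called in every setting run. Of the 75-base windows of Ear2 transcripts, 23.4% also occur in transcripts of 4 other genes of the family, most of them in Ear10, so counts may be split between copies.

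**Figure D2:**
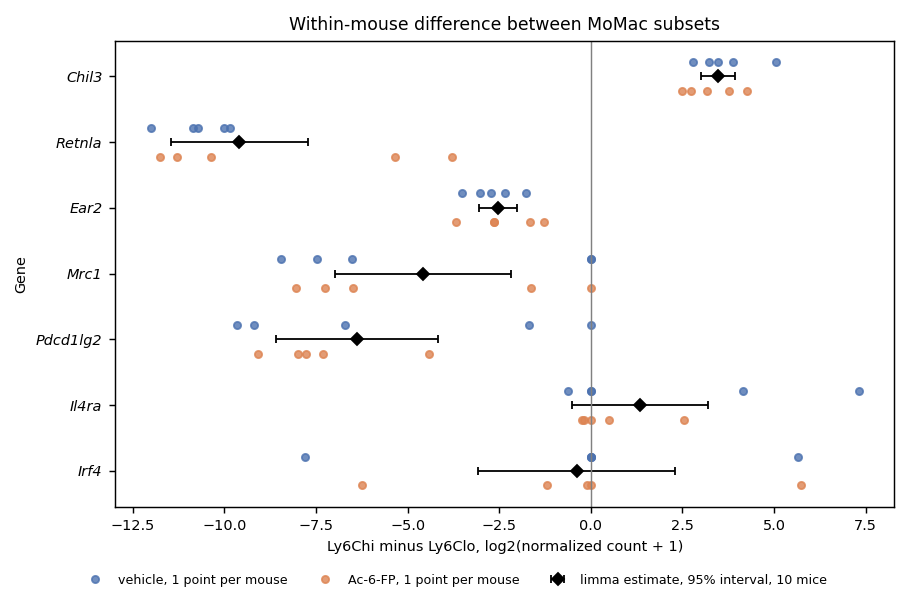
Within-mouse difference of log2(normalized count + 1), Ly6Chi minus Ly6Clo (horizontal axis), for 7 genes. Dots are single mice (blue vehicle, orange Ac-6-FP), and black diamonds with bars are limma estimates with 95% intervals over 10 mice. The intervals of Retnla, Pdcd1lg2, Mrc1 and Ear2 lie below 0, that of Chil3 above 0, and those of Il4ra (-0.52 to 3.21) and Irf4 (-3.09 to 2.30) include 0.

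Pdcd1lg2 (GSMG0019579, chromosome 19 from 29410916 to 29472927) encodes PD-L2, a surface ligand that restrains T cells through PD-1 and is induced by interleukin-4. Ly6Clo libraries were at 104, 0, 812, 586 and 289 normalized counts with vehicle and at 216, 212, 159, 546 and 252 with Ac-6-FP. Of the Ly6Chi libraries, 8 were at 0, and the others were mouse 15 (89) and mouse 17 (9). It was higher in Ly6Clo MoMac in 9 of 10 mice, and both libraries of mouse 12 were at 0. The log2 difference was -6.38 (standard error 1.02, adjusted p = 0.00186, limma), and -6.02 without mouse 13, whose Ly6Clo library held the highest value (adjusted p = 0.00477). It was called in all 8 other settings and in all 10 fits without 1 mouse. A row for A930007I19Rik overlaps this locus and reached 198 normalized counts, and strand could not be taken into account. The other PD-1 ligand, Cd274, chosen after its values were seen, had a log2 difference of -2.64 (standard error 0.93) that did not pass (adjusted p = 0.154, limma).

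Mrc1 (GSMG0020688, chromosome 2 from 14229414 to 14332027) encodes the mannose receptor of macrophages and liver sinusoidal endothelium. Ly6Clo libraries were at 415, 177, 0, 0 and 349 normalized counts with vehicle and at 529, 88.6, 0, 122 and 262 with Ac-6-FP. Ly6Chi libraries were at 0 in 7 mice and at 3.54, 2.50 and 38.7 in mice 11, 16 and 19. The receptor transcript was higher in Ly6Clo MoMac in 7 of 10 mice, and mice 13, 14 and 18 had 0 in both subsets. The log2 difference was -4.58 (standard error 1.11, adjusted p = 0.0305, limma), -5.09 without mouse 13 (adjusted p = 0.0187). The call was lost with a pseudocount of 0.1 (0.0512), with no filter (0.0537) and in 7 of 10 fits without 1 mouse (0.0971 at most). Of the other liver endothelial markers, 1 of 4 tested was higher in Ly6Clo MoMac, against 3.44% of all genes tested (Clec4g, adjusted p = 0.0145 with limma, 0.111 with edgeR). Without mouse 13, 2 of the 4 markers were higher there (also Pecam1, adjusted p = 0.00206, limma). Summed over 6 markers, Mrc1 left out, they reached 0 to 4451 normalized counts (median 1400; 633 to 4451 without mouse 13) in Ly6Clo and 31.9 to 338 (median 140) in Ly6Chi libraries. Most of the sum was Pecam1, which is shared with leukocytes and did not pass over all 10 mice (adjusted p = 0.3, limma). Stab2, Lyve1 and Kdr, typical of liver endothelium, were at 0 in all Ly6Chi and in most Ly6Clo libraries, with 2, 1 and 3 Ly6Clo libraries above 0. Their part in the Mrc1 difference was not tested.

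Il4ra and Irf4, the receptor chain and the transcription factor upstream of the program, were low and did not differ beyond the spread between mice. Il4ra (GSMG0035153, chromosome 7 from 125552238 to 125579472) was at 15.9, 0, 0, 159 and 16.8 normalized counts in Ly6Chi vehicle and at 38.1, 86.0, 0, 59.3 and 174 in Ly6Chi Ac-6-FP libraries. In Ly6Clo MoMac it was at 24.8 in mouse 11 and at 0 in the other 4 vehicle mice, and at 5.68, 98.7, 0, 70.2 and 123 with Ac-6-FP. Mice 12, 13 and 18 had 0 in both subsets, and of the rest 4 had more in Ly6Chi and 3 more in Ly6Clo MoMac. The log2 difference was 1.35 (standard error 0.86, 95% interval -0.52 to 3.21, adjusted p = 0.464, limma). Irf4 (GSMG0009602, chromosome 13 from 30749233 to 30766981) was above 0 in 4 libraries of each subset, at 5.96 to 51.9 in Ly6Chi and 14.8 to 222 in Ly6Clo MoMac, and only mice 19 and 20 had it in both. Its log2 difference was -0.39 (standard error 1.24, 95% interval -3.09 to 2.30, adjusted p = 0.89, limma). Unnamed rows overlap both loci and reached 47.3 and 219 normalized counts.

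Markers of several other cell types were higher in Ly6Clo libraries, as were Retnla, Pdcd1lg2, Mrc1 and Ear2. For the counts that follow, 3.44% of all genes tested were higher in Ly6Clo and 1.76% in Ly6Chi MoMac. Of 7 eosinophil markers, 6 were tested and 5 were higher in Ly6Clo MoMac (Il5ra with limma, adjusted p = 0.044, and not with edgeR, 0.15). Ear1, a relative of Ear2, is one of these markers. Their sum ranged from 31.3 to 20911 normalized counts (median 5675) in Ly6Clo libraries, from 1781 to 20911 (median 7080) without mouse 13, and from 0.88 to 43 in Ly6Chi libraries, and Prg2, Epx, Ccr3 and Il5ra were at 0 in all Ly6Chi libraries, Epx in the Ly6Clo libraries too. Of 10 neutrophil markers, 4 were higher in Ly6Clo and 2 in Ly6Chi MoMac (sum 10371 to 133722 against 4433 to 14825). NK cell markers (Gzmb, Klrb1c, Ncr1 and Nkg7, the 4 called of 6 T and NK cell markers tested; sum of the list 23286 to 52453 against 0 to 732) and dendritic cell markers (3 of 7 higher in Ly6Clo; sum 7705 to 19404 against 83.8 to 535, Itgax at 0 in all Ly6Chi libraries) were higher in the same subset. In Ly6Clo libraries Cd209a (mean 11870 normalized counts) made up most of the dendritic cell sum, and Retnlg (mean 40889) most of the neutrophil sum. The T cell markers Cd3d and Cd3g did not pass, and Cd3e was at 0 in all Ly6Chi and 8 of 10 Ly6Clo libraries. Hepatocyte markers summed to 1018 to 2184 in Ly6Clo and 103 to 1201 in Ly6Chi libraries (1 of 4 tested, Apoa1, called), and Cps1, a urea cycle enzyme of hepatocytes, was at 0 in all Ly6Clo libraries. Kupffer cell markers stayed at or below 808 and B cell markers at or below 1131 (1 of 4 called in each, higher in Ly6Clo), and none of the 3 stellate cell markers tested was called. The part of these markers in the member differences was not tested, and in sorted bulk samples a smaller share of a cell type and less RNA per cell cannot be told apart.

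Levels of a gene in the 2 subsets of a mouse were also compared over the 10 mice. Chil3 gave Pearson r = 0.598 and Spearman rho = 0.552 (permutation p = 0.0371 and 0.163, each adjusted over 3 relations). Without mice 14 and 16, the 2 farthest from the median in Ly6Clo MoMac, r was 0.36. Leaving them out also narrows the range, and the drop was not tested. Ear2 gave r = -0.00709 (adjusted permutation p = 0.984) and rho = 0.0545.

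Of the members above 0 in at least 6 Ly6Clo libraries that are given here, Retnla had the highest rank correlation with the eosinophil markers over mice. The sum of Siglecf, Prg2, Epx, Ccr3 and Il5ra in Ly6Clo MoMac was highest in mouse 20 (20089 normalized counts), which had the most Retnla, and of the libraries above 0 it was lowest in mouse 19 (1730), which had the least. The Ly6Clo library of mouse 13 held none of the 5 transcripts and 914 normalized counts of Retnla. Over 10 mice Spearman rho was 0.794 (permutation p = 0.00898, 0.0539 adjusted over 6 relations) and Pearson r of log2 values 0.273 (permutation p = 0.201, adjusted 0.402). Without mouse 13, r was 0.743, and without mice 13 and 20 it was 0.69. The value for Ear2 moved further, from r = -0.0612 over 10 mice to -0.682 without mouse 13 and -0.798 without mice 13 and 20. The other genes given, Chil3, Mrc1, Pdcd1lg2 and Ear2, had rho from -0.685 (Pdcd1lg2) to 0.515 (Chil3), and none passed adjustment (smallest adjusted permutation p = 0.0925). The relations were chosen after the values were seen, and arms of 5 mice are too small for separate values.

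**Figure D3:**
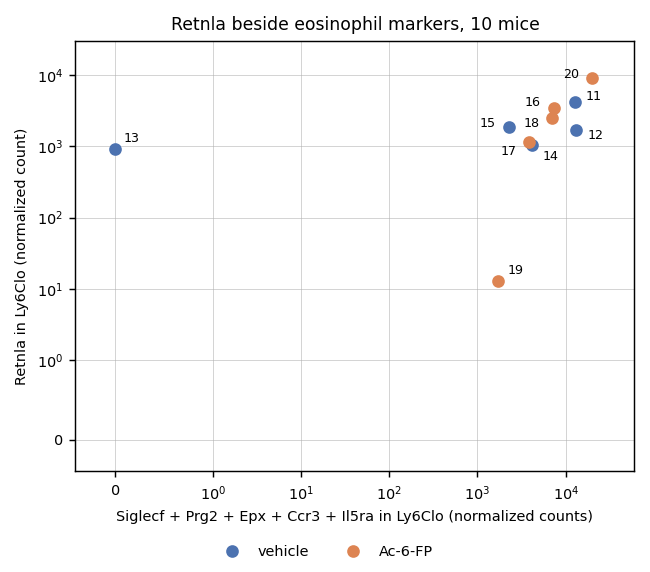
Retnla (vertical axis) against the sum of 5 eosinophil markers (horizontal axis) in Ly6Clo MoMac, in normalized counts on axes that are logarithmic above 1. Points are mice, numbered, blue for vehicle and orange for Ac-6-FP. Mouse 20 is highest and mouse 19 lowest in Retnla, and mouse 13 is set apart at a marker sum of 0.

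Other genes of the program were counted from lists chosen with earlier results of these data known. Of 32 further alternative activation genes, 30 were tested, and 11 were higher in Ly6Clo, 1 was higher in Ly6Chi and 18 did not pass. Of all genes tested, 3.44% were higher in Ly6Clo and 1.76% in Ly6Chi MoMac. Without mouse 13 the list gave 12 and 2, with Batf3 added in Ly6Clo and Clec7a in Ly6Chi, and edgeR did not call Pparg and Ccl17 of the 11. The median log2 difference was -1.98, against -0.03 for all genes tested. Ear1 and Cd209a of the 11 were also counted above, as markers of eosinophils and of dendritic cells. By size the 11 were led by Alox15, a lipoxygenase abundant in eosinophils and induced by interleukin-4 (6475 ± 5896 against 40.7 ± 82.6 normalized counts, Ly6Clo against Ly6Chi, SD, n = 10), and by Il10, an anti-inflammatory cytokine (802 ± 587 against 7.26 ± 22.9). Next came Ccl22, a chemokine for T cells (809 ± 793 against 7.75 ± 24.5), and Cd209a, a lectin of dendritic cells and monocytes (11870 ± 4860 against 188 ± 173). All 4 had adjusted p-values of 0.000978 or less (limma). Over all 10 mice the exception in direction was Chil4, given above with Chil3 (526 ± 131 in Ly6Chi against 55.6 ± 27.2 in Ly6Clo MoMac).

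**Figure D4:**
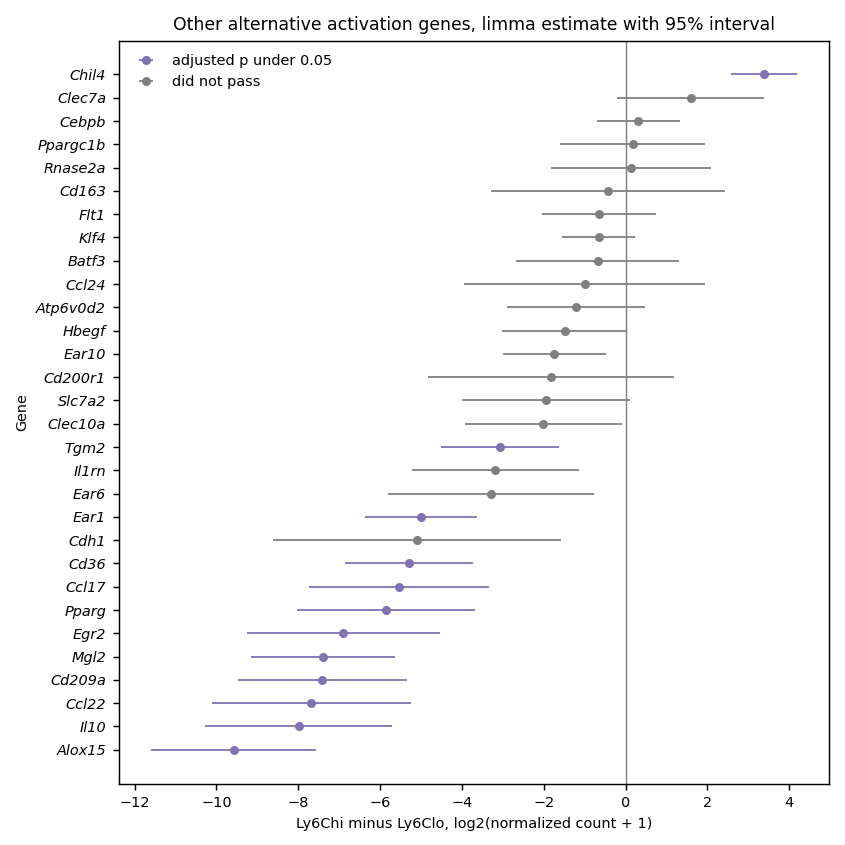
Ly6Chi minus Ly6Clo difference of log2(normalized count + 1) (horizontal axis) for the 30 tested genes of the further alternative activation list, with limma estimates and 95% intervals over 10 mice, purple where the adjusted p-value is under 0.05. The 11 genes called lower in Ly6Chi run from Tgm2 (-3.07) to Alox15 (-9.58), and Chil4 (3.38) is the 1 gene called higher.

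In the interleukin-4 and interleukin-13 pathway, 2 of 13 genes tested were higher in Ly6Clo MoMac, against 3.44% of all genes tested. Il4 itself was at 0 in all Ly6Chi libraries and at 0 to 196 normalized counts in Ly6Clo libraries, 9 of them above 0 (log2 difference -5.39, adjusted p = 0.000838 with limma, 0.149 with edgeR). Il2rg, the common gamma chain that pairs with Il4ra, was above 0 everywhere and 4.42-fold higher in Ly6Clo MoMac (23810 ± 4608 against 5392 ± 1114, SD, n = 10; adjusted p = 2.18e-08, limma). Stat6, chosen after its values were seen, had a log2 difference of -0.00482 (95% interval -0.71 to 0.70). Of 16 genes tested around arginine and nitric oxide metabolism, 1 was called, Sat1 of polyamine breakdown, 1.43-fold higher in Ly6Clo MoMac (adjusted p = 0.0133, limma), a share close to that of all genes. Among 19 genes of interferon-gamma and LPS activation, the setting in which Nos2 is usually induced, 3 were higher in Ly6Clo MoMac, again against 3.44% of all genes. Ifng, the cytokine itself, was above 0 in 1 Ly6Chi and 8 Ly6Clo libraries (702 ± 536 normalized counts in Ly6Clo), and Acod1, the itaconate-forming enzyme, in 1 and 9 (486 ± 746). Ifngr1, the receptor chain, was 1.5-fold higher in Ly6Clo MoMac (adjusted p = 0.0296 with limma, 0.0756 with edgeR). NK cell markers were higher in the same Ly6Clo libraries, and their part in the differences of Il2rg, Ifng and the other genes named here was not tested.

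Only Chil3 and Ear2 were above 0 in enough libraries (19 of 20) to look for genes of like pattern among 3833 genes. By Pearson correlation of log2 values over 20 libraries, Chil3 was nearest to Chil4 (0.995), Ly6c2 (0.956) and Ly6c1 (0.936). Ear2 was nearest to B2m (0.932), Treml4 (0.927) and R74862 (0.916). These 20 points are pairs of libraries from 10 mice in 2 subsets, so that any gene that differs between the subsets scores high.

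The second question was whether Ac-6-FP changed these genes. No member was called in either subset. In Ly6Chi MoMac 13 of 17248 genes (0.0754%) and in Ly6Clo MoMac 9 (0.0522%) had an adjusted p-value under 0.05 (limma, 5 against 5 mice), and 0 members did, with 0 members at an unadjusted p-value under 0.05. With 1 mouse left out the gene counts moved widely, from 0 to 133 in Ly6Chi and from 0 to 103 in Ly6Clo MoMac. Without mouse 13, 2 genes were called in Ly6Clo MoMac. With edgeR on recovered reads 0 genes were called in each subset, and 1 member in Ly6Chi (Retnla, named after its values were seen, adjusted p = 0.487) and 0 in Ly6Clo MoMac had an unadjusted p-value under 0.05. The median of all genes tested was shifted upward with Ac-6-FP, by 0.35 in Ly6Chi and 0.91 in Ly6Clo MoMac (0.35 without mouse 13), and the shift was 0.01 and 0.06 after adjustment for the genes detected per library. Member changes are to be read against these medians.

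The abundant secreted products were measured precisely enough to bound a change. Chil3 changed by -0.10 in Ly6Chi (95% interval -0.58 to 0.38) and by 0.30 in Ly6Clo MoMac (-0.98 to 1.58). For Ear2 the changes were 0.11 (-0.38 to 0.60) and -0.19 (-1.18 to 0.80). Group means of Chil3 were 79935 ± 4528 with Ac-6-FP and 89800 ± 33447 with vehicle in Ly6Chi MoMac (SD, n = 5 each), where mouse 11 carried the high vehicle value. The Ac-6-FP libraries all lay inside the range of the vehicle libraries there.

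The other members varied too much between mice for a comparable bound. Retnla was at 3244 ± 3528 with Ac-6-FP and 1926 ± 1304 with vehicle in Ly6Clo MoMac (log2 change -0.66, -4.14 to 2.82), so the mean and the log2 change had opposite signs, since mouse 19 was low and mouse 20 high. Mrc1 was at 200 ± 206 and 188 ± 192 in Ly6Clo MoMac (log2 change 1.18, and -0.05 without mouse 13). Pdcd1lg2 was at 277 ± 154 and 358 ± 337 there (log2 change 1.23, 95% interval -2.52 to 4.97). Without mouse 13 the vehicle mean was 245 ± 257 (SD, n = 4) and the log2 change 1.96, and without mouse 12, at 0 there, the log2 change was -0.46, so that the opposite signs of the mean difference and the log2 change rested on single mice.

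By the main limma estimate, Il4ra in Ly6Clo MoMac had the largest change with Ac-6-FP, and with edgeR it was Retnla in Ly6Chi MoMac (5.98, adjusted p = 0.487), which was above 0 in 2 of 10 libraries there. Il4ra in Ly6Clo MoMac was above 0 in 4 of 5 Ac-6-FP and 1 of 5 vehicle libraries (59.6 ± 55.2 against 4.97 ± 11.1 normalized counts, SD, n = 5 each). Fewer genes of any kind were above 0 in Ly6Clo vehicle libraries (median 10379, against 14084 with Ac-6-FP), so detection and treatment cannot be told apart. The log2 change of Il4ra, 3.56 (standard error 1.62, 95% interval -0.07 to 7.19), did not pass (limma, p = 0.0538, adjusted p = 0.537; two-sided exact permutation test, p = 0.0873). Without mouse 13 it was 3.33. After adjustment for the genes detected per library it was 1.92, smaller in size than the change of Mrc1 in Ly6Clo MoMac (-2.07). For Il4ra in Ly6Chi MoMac the change was 1.91 (-2.37 to 6.19), and -0.13 after adjustment for the genes detected per library. For Irf4, the changes were 1.70 in Ly6Chi (-1.98 to 5.38) and 1.63 in Ly6Clo MoMac (-2.78 to 6.05), where the means ran the other way (28.4 ± 33.6 with Ac-6-FP and 44.5 ± 99.4 with vehicle, SD, n = 5 each).

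**Figure D5:**
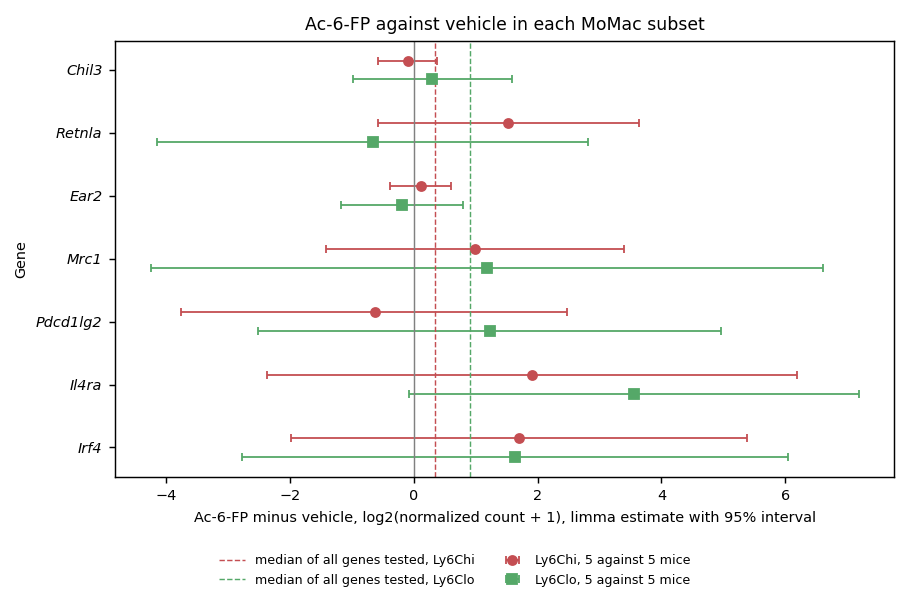
Change of 7 genes with Ac-6-FP, as log2(normalized count + 1) Ac-6-FP minus vehicle (horizontal axis), in Ly6Chi (red circles) and Ly6Clo MoMac (green squares), limma estimates with 95% intervals, 5 against 5 mice. Dashed lines are the medians of all genes tested (0.35 and 0.91). All intervals in both subsets include 0, and those of Chil3 and Ear2 are the narrowest.

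No member passed the test of a difference between the subsets in its change with Ac-6-FP. For the difference of within-mouse differences between arms, 0 of 17248 genes (0%) and 0 of 7 members were called (limma, 840 genes and 0 members at an unadjusted p-value under 0.05; edgeR 0 genes called). The estimates of the members ran from -1.86 (Pdcd1lg2, 95% interval -6.35 to 2.62, adjusted p = 0.84) to 2.18 (Retnla, -1.48 to 5.84, adjusted p = 0.83). Without mouse 13 the estimates of Pdcd1lg2 and Retnla were -2.91 and 2.39. The lists around the members were likewise without a call in any of these 3 comparisons: 0 of 30 further alternative activation genes, 0 of 13 interleukin-4 and interleukin-13 pathway genes, 0 of 16 arginine and nitric oxide genes and 0 of 19 interferon-gamma and LPS genes. With 5 mice per arm these counts say that no change was detectable, not that there was none.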

How the data were processed

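RNA was sequenced from Ly6Chi and Ly6Clo MoMac of 10 mice in 20 libraries. The values are signal values made by the authors before deposit: reads of 75 bases were aligned with STAR 2.4.0 to mm10, counted on constitutive regions of FAST DB genes, and divided by 1 DESeq2 size factor per library (normalized counts, linear, 2 decimals). They are whole multiples of 1 step per library (100.00% of values above 0, tolerance 0.006), so reads were recovered and tested with edgeR 4.0.16 (quasi-likelihood) as an alternative.

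Values were analysed as log2(normalized count + 1), so folds of low genes are understated, with limma 3.58.1 in R 4.3.3, for 17248 genes with a mean of at least 10 in at least 1 of 4 groups. The subsets were compared by within-mouse differences over 10 mice, Ac-6-FP and vehicle as 5 against 5 mice in each subset, and the change between subsets by the within-mouse difference. Libraries of a number were taken as the same mouse, since the labels give both subsets 1 number and the Methods name a paired t test. The median correlation of residuals was 0.0338 over 10 such pairs (0.00334 to 0.25). Over 40 pairs of different mice of an arm it was -0.00496 (-0.114 to 0.0823), so the ranges overlap. Single genes were also tested with two-sided exact permutation tests, whose smallest p is 0.00195 over 10 mice and 0.00794 for 5 against 5. Relations over mice used 100000 resamples. Scripts ran under Python 3.11.15 (pandas 2.3.3, scipy 1.17.1, numpy 2.4.6) and were tested on simulated data.

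The members and lists were chosen with earlier results of these data known, and 2 further genes of the set are not reported here. Of the gene lists, Jak3, Ass1, Oaz1, Trac and Serpina1a were not found by symbol. Named were the other members, from each list up to 4 called genes by size, the sorting marker Ly6c2, and 3 genes of like pattern for members above 0 in at least 19 libraries. Alternatives were other pseudocounts (0.1 and 10), filters (none, and a group mean of 100), equal library totals, genes detected as a covariate, no pairing, edgeR, and leaving out each mouse. EdgeR without mouse 13 or 15 was added after the data were seen.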

Additional observations from a re-analysis of the deposited data

Results flagged for a closer look

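Within groups of 5 libraries, 10 of the 27 groups of a member with any value above 0 held a library whose gap to the next, divided by the range of the group, exceeded the critical ratio of 0.71 (Dixon). For normally distributed values chance gives about 1 in 20 groups, and these counts cannot be set against that, since a group with 1 library above 0 and the others at 0 always exceeds the ratio. In all of them but Pdcd1lg2 in Ly6Clo Ac-6-FP libraries, at least 2 of the other libraries were at 0.

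In Ly6Chi vehicle libraries these were Il4ra in mouse 14 (159 normalized counts, next 16.8), and 3 genes at 0 in the other 4 libraries, Irf4 (49.6) and Mrc1 (3.54) in mouse 11 and Pdcd1lg2 in mouse 15 (89). Of the Ly6Chi Ac-6-FP libraries, mouse 17 stood apart for Retnla (27, next 5.96) and Pdcd1lg2 (9, next 0), and mouse 19 for Mrc1 (38.7, next 2.5).

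In Ly6Clo vehicle libraries Irf4 (222) stood apart in mouse 14 and Il4ra (24.8) in mouse 11, each with 0 in the other 4 libraries. With Ac-6-FP, Pdcd1lg2 stood apart in mouse 19 (546, next 252). Chil3 and Ear2 held no such library in any group.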

How the results depend on the processing

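Chil3, Retnla, Pdcd1lg2 and Ear2 kept direction and call between subsets in all 8 other settings and without any 1 mouse. The genes called between subsets numbered 896, and 1702 with genes detected as a covariate, 584 with edgeR (774 without mouse 13, 467 without mouse 15), and 642 to 1162 with 1 mouse left out. Libraries of a number were taken to share a liver, and without the pairing 987 genes were called between subsets and 3 (against 0) for the difference of the Ac-6-FP change. Of the members, none changed its call when the pairing was dropped.

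Genes called with Ac-6-FP in Ly6Chi MoMac numbered 13, and 5 with no filter, 4 with a filter of 100, 0 with the covariate, 0 with edgeR and 0 to 133 with 1 mouse left out (133 without mouse 11). In Ly6Clo MoMac they numbered 9, and 2 with a pseudocount of 10, with no filter, with a filter of 100 and with the covariate, 0 with edgeR and 0 to 103 with 1 mouse left out (103 without mouse 11). The difference between subsets gave 0, and 2 with a filter of 100 and 0 to 4 with 1 mouse left out. No member was called in any of these.

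Member values that changed sign were all uncalled. With Ac-6-FP in Ly6Chi MoMac these were Il4ra (-0.13) and Ear2 (-0.16) with the covariate. In Ly6Clo MoMac they were Chil3 (-0.02) and Mrc1 (-2.07) with the covariate, and with edgeR Retnla (0.70), Irf4 (-0.67) and Pdcd1lg2 (-0.37). With edgeR and without mouse 13, values there were 0.52 for Retnla, -0.97 for Irf4 and -0.23 for Mrc1. With edgeR and without mouse 15, the value in Ly6Chi MoMac was 4.18 for Pdcd1lg2. For the difference between subsets they were Mrc1 with the covariate (0.26), and with edgeR Mrc1 (0.94) and Irf4 (-0.47). With edgeR they were also Mrc1 (1.35) and Irf4 (-0.45) without mouse 13, and Irf4 (-0.42) and Pdcd1lg2 (1.82) without mouse 15.

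With 1 mouse left out, the Ac-6-FP change in Ly6Chi MoMac ranged from -0.22 to 0.09 for Chil3, -0.03 to 0.20 for Ear2 and -1.30 to 0.66 for Pdcd1lg2. In Ly6Clo MoMac it ranged from -0.16 to 0.57 for Chil3, -0.48 to 0.09 for Ear2, 0.87 to 3.19 for Irf4, -0.05 to 2.70 for Mrc1, -0.46 to 1.96 for Pdcd1lg2 and -1.44 to 0.90 for Retnla. The difference between subsets ranged from -1.77 to 1.59 for Irf4, -1.36 to 0.93 for Mrc1 and -2.91 to -0.50 for Pdcd1lg2, and Irf4 between Ly6Chi and Ly6Clo from -1.07 to 0.43. The cause of these changes was not tested. Mrc1, Il4ra, Irf4 and Pdcd1lg2 were at 0 in many libraries, and their estimates have wide intervals.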
